A study of Mus musculus with 8 samples.

Results

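The organic cation transporters and carnitine supply genes examined here were 9 genes, picked by gene name out of 55367 listed in the count table of a kidney RNA-Seq experiment. They comprised the organic cation transporters *Slc22a2* (OCT2) and *Slc22a3* (OCT3), the carnitine and zwitterion carriers *Slc22a4* (OCTN1), *Slc22a5* (OCTN2), and *Slc22a21* (OCTN3), the exporter *Slc47a1* (MATE1), and the carnitine synthesis enzymes *Tmlhe*, *Aldh9a1*, and *Bbox1*. Whole kidneys of 4 c-MafΔTAM mice were compared with those of 4 c-Maf fl/fl mice, all on C57BL/6J and labelled as 8 weeks old. The c-MafΔTAM mice carried the floxed *c-Maf* allele together with CAG-Cre-ERTM, a Cre recombinase that becomes active after tamoxifen (TAM). The c-Maf fl/fl mice carried the same floxed allele without Cre, and both groups received TAM. The CAG promoter is active in most cell types, so deletion was not limited to the kidney or to 1 cell type of it. The question of the comparison was which kidney genes depend on c-Maf, a basic leucine zipper transcription factor. In whole tissue, fewer cells of a type and less RNA per cell cannot be told apart.

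Carnitine carries long-chain fatty acids into mitochondria, where proximal tubule cells burn them as their main fuel. It comes from the diet and from synthesis out of trimethyllysine, and the kidney keeps it in the body by taking it back from the filtrate through OCTN2 at the brush border. Organic cations such as creatinine, metformin, and monoamines take another route: OCT carriers bring them into the tubule cell from the blood side, and MATE1 exchanges them for protons on the urine side.

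*Slc22a5*, the high-affinity carnitine transporter, fell 2.77-fold in c-MafΔTAM kidneys, and *Aldh9a1*, the dehydrogenase of the penultimate step of carnitine synthesis, fell 2.24-fold. No other member passed the test across all genes. *Slc22a2* and *Slc47a1*, the uptake and exit carriers of the organic cation route, varied with *Xist*, and in c-Maf fl/fl kidneys they averaged 2.15 and 1.42 times as much in mice with low as in mice with high *Xist*. Both were higher in c-MafΔTAM mice in the fit with *Xist* as a covariate, but of the pair only *Slc22a2* also passed among the mice with high *Xist*. *Slc22a4*, which lies 91.5 kb from *Slc22a5*, did not pass the test in any fit that was run.

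The 9 members lie at 6 places in GRCm38. *Slc22a5* (chr11:53864542-53891660), *Slc22a21* (chr11:53949965-53980332), and *Slc22a4* (chr11:53983123-54028090) form a cluster on the minus strand of chromosome 11. *Slc47a1* (chr11:61343401-61378345, minus strand) lies farther along the same chromosome. *Slc22a3* (chr17:12418960-12507704, minus strand) and *Slc22a2* (chr17:12584132-12628488, plus strand) are close together on chromosome 17. *Aldh9a1* lies at chr1:167349991-167368532 on the plus strand, *Bbox1* at chr2:110262697-110314560 on the minus strand, and *Tmlhe* on the unplaced scaffold GL456233.1, bases 159647 to 334183, plus strand.

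c-Maf binds Maf recognition elements, of which the shortest form, the half-site, has the core TGCTGA. The 300 bases around the RefSeq start (250 before and 50 after, GRCm38.p6) were read for 6 of the 9 members, and the promoters of both genes that fell are shown because they differ in this core. Capitals mark TGCTGA, searched on both strands. The first lies at chr1:167349741-167350040 on the plus strand and the second at chr11:53891654-53891953 on the minus strand.

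Aldh9a1: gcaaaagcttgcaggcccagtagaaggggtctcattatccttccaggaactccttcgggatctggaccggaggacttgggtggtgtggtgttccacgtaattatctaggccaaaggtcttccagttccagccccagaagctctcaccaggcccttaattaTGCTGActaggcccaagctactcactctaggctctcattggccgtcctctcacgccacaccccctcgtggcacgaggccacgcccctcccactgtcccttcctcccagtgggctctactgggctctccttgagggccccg
Slc22a5: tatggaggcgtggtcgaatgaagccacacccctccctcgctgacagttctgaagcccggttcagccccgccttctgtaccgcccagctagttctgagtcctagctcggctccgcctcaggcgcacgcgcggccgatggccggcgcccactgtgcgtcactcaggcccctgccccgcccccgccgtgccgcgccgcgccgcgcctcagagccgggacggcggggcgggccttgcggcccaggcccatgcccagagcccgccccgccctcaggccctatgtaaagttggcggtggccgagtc

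The *Aldh9a1* promoter held the core at position -90 from the start, and there it also matched the 7-letter form TGCTGAC, which overlaps it. The *Slc22a5* promoter, with a GC content of 72.7% against 59.0% for *Aldh9a1*, held no TGCTGA on either strand. Among the other members with a promoter, *Bbox1* held the core at position -47 and *Slc22a2* on the opposite strand at position 35 inside the transcript. *Slc22a3* and *Slc22a4* held none. The windows around the other 2 matches are shown for comparison with that of *Aldh9a1*, each read along the strand of the match.

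Bbox1: aggctcacacTGCTGAgtggtaggca
Slc22a2: tgcaaatgcTGCTGAaggcagctgc

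Of 32851 RefSeq promoters of the same length, 19.5% held TGCTGA and 4.67% held TGCTGAC. None of the 6 member promoters held the longer elements TGAGTCA (5.20% of all promoters), TGACGTCA (1.79%), or TGANTCA (7.81%), the last of which includes the first. The 3 member promoters with a core belonged to 1 gene that fell and 2 that did not pass the test across all mice. Of these 2, *Slc22a2* was higher with *Xist* as a covariate and among mice with high *Xist*. A match says only that the letters are present.

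The 3 OCTN genes arose by duplication, and their sequence similarity bears on how reads could be assigned. The coding sequences of *Slc22a5* (1671 bases) and *Slc22a21* (1692 bases) were 90.4% identical over 1671 aligned bases, whereas *Slc22a4* was 76.7% identical to *Slc22a5* and 74.8% to *Slc22a21*. The longest stretch shared base for base by *Slc22a5* and *Slc22a21* is shown because each read was 36 bases long and could fall entirely within it. It covers coding bases 1289 to 1445 of *Slc22a5* and 1298 to 1454 of *Slc22a21*, 157 bases in all.

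Slc22a5 and Slc22a21: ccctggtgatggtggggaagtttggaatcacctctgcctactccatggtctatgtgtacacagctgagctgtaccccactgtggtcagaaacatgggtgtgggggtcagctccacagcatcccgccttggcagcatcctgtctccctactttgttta

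Of all 36-base sequences in the transcripts of *Slc22a5*, 32.5% also occurred in *Slc22a21*, and 27.2% of those of *Slc22a21* occurred in *Slc22a5*. The values of *Slc22a21* are therefore uncertain. *Slc22a2* shared 6.66% and *Slc22a4* 5.41% with any other gene. *Slc22a3* overlapped exons of *Plg* over 9.31% of its exonic length, and reads there were left out by the counting. For *Aldh9a1*, *Bbox1*, and *Slc47a1* the shared portion was under 0.1%. The transcript set used for this held no transcript of *Tmlhe*, so its shared portion was not measured.

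Levels are given as CPM (counts scaled by TMM to one common library size), and a change is a log2 fold change of c-MafΔTAM relative to c-Maf fl/fl from edgeR's quasi-likelihood test with Benjamini-Hochberg adjustment over all 20149 genes that passed the filter, with adjusted *P* under 0.05 as the threshold. The counts totaled 16649129 to 22990257 per mouse, of which 17.1% to 32.3% were on mitochondrial genes, the highest in c-MafΔTAM mouse 1. *Maf*, the deleted gene, was at 9.06 to 34.5 CPM in the c-MafΔTAM and 305.4 to 379.9 CPM in the c-Maf fl/fl mice (log2 fold change -4.05, SE 0.512, adjusted *P* = 0.0115). The labels call the tissue whole kidney, while the extraction protocol in them also speaks of liver. The proximal tubule gene *Lrp2* averaged 6759 and 7580 CPM in the 2 groups whereas 6 hepatocyte genes were mixed: *Alb* was at 1.37 and 5.65, *Fgb* at 2.96 and 2.02, *Serpina1a* at 9.89 and 2.51, *Apoa1* at 0.653 and 0.339, and *Apob* at 554.4 and 675.0 CPM, and *Cps1* had at most 2 counts in any mouse. Sex is not given in the labels. *Xist* had 17618 to 22387 counts in 5 mice (c-MafΔTAM mice 2, 3, and 4 and c-Maf fl/fl mice 1 and 2) and 2 to 22 counts in the other 3 (c-MafΔTAM mouse 1 and c-Maf fl/fl mice 3 and 4), and Y-linked genes had 2293 to 2886 counts in those 3 and 3 to 12 in the 5. Calls that depend on this split are given with *Xist* as a covariate and within the mice with high *Xist*. For *Maf* the log2 fold change was -4.25 with the covariate (adjusted *P* = 0.00937). Among mice with high *Xist* it was -3.87 and did not pass the test (adjusted *P* = 0.108).

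All 9 members passed the filter on low counts. Of the 9, 2 were lower and 0 were higher in c-MafΔTAM kidneys by edgeR's quasi-likelihood test, against 1.58% of all tested genes lower and 0.586% higher. Without adjustment 1 member was higher at *P* under 0.05, as were 6.58% of all genes tested (7.44% lower), and DESeq2 and edgeR's exact test called 0 members higher. The median log2 fold change of the members was 0.04, against 0.00 over all genes tested. The same 2 members were the ones whose genotypes did not overlap, as was the case for 9.79% of all genes tested (5.62% lower and 4.17% higher).

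**Figure D1:**
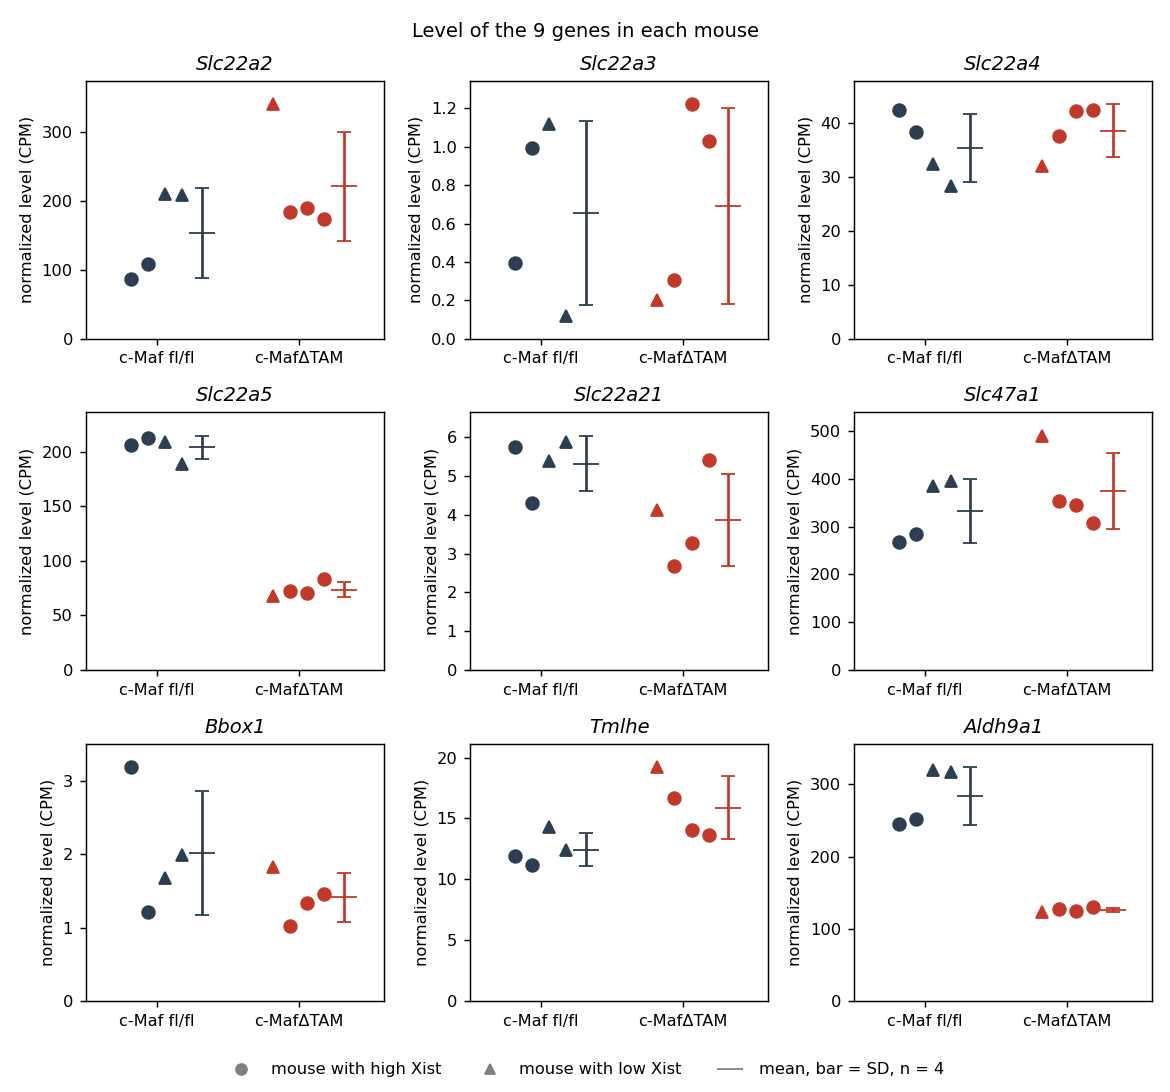
CPM of each of the 9 members in each mouse, 1 panel per gene on its own linear axis from 0, with c-Maf fl/fl mice on the left and c-MafΔTAM mice on the right; circles are mice with high *Xist*, triangles mice with low *Xist*, and the bar gives the mean and SD of 4 mice. *Slc22a5* (67.6 to 83.8 against 188.4 to 212.2 CPM) and *Aldh9a1* separated the genotypes, whereas *Slc22a2* and *Slc47a1* lay higher in mice with low *Xist*.

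*Slc22a5* encodes the sodium-dependent carnitine carrier of the brush border, whose loss causes systemic carnitine deficiency in mice and humans. Its level was 67.6, 72.4, 70.9, and 83.8 CPM in c-MafΔTAM mice 1 to 4 and 206.3, 212.2, 209.1, and 188.4 CPM in c-Maf fl/fl kidneys, in the same order of mice. All c-MafΔTAM mice were far below all c-Maf fl/fl mice, and each group was tight. Averages were 73.7 ± 7.03 and 204.0 ± 10.7 CPM (SD over 4 mice each), with a log2 fold change of -1.47 (SE 0.0907, 95% confidence interval -1.67 to -1.27, adjusted *P* = 4.88e-06). The log2 fold change among mice with high *Xist* was also -1.47, where 2.22% of the genes tested were called lower, and it was -1.49 with *Xist* as a covariate, where 4.23% were. In mice with low *Xist* the single c-MafΔTAM mouse stood at 0.340 of the c-Maf fl/fl mean.

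*Slc22a21* encodes OCTN3, a carnitine carrier that was described in mouse peroxisomes. It was at 4.12, 2.67, 3.27, and 5.41 CPM in c-MafΔTAM and 5.74, 4.29, 5.38, and 5.86 CPM in c-Maf fl/fl kidneys, from 52 to 117 counts per mouse. The ranges overlapped, and the log2 fold change of -0.46 (SE 0.224, 95% confidence interval -0.95 to 0.03, adjusted *P* = 0.396) did not pass the test. Because reads from the shared stretches can be given to either gene, the reads of both were also summed. The sum had a log2 fold change of -1.43 (adjusted *P* = 6.82e-06), close to that of *Slc22a5* alone, which held most of the reads.

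The share of *Slc22a5* among the reads of both genes was 94.3% in c-MafΔTAM mouse 1 (95% Wilson interval 92.9% to 95.4%), 96.4% in mouse 2 (95.4% to 97.3%), 95.6% in mouse 3 (94.4% to 96.6%), and 93.9% in mouse 4 (92.7% to 94.98%). The share was, for c-Maf fl/fl mice 1 to 4, 97.3% (96.8% to 97.7%), 98.0% (97.6% to 98.4%), 97.5% (97.0% to 97.9%), and 97.0% (96.3% to 97.5%). These intervals cover counting error only. The groups did not overlap, and the mean was 2.39 percentage points apart, at 95.1 ± 1.17% in c-MafΔTAM and 97.4 ± 0.436% in c-Maf fl/fl kidneys (SD, n = 4 each). The exact two-sided permutation test gave *P* = 0.0286, the smallest that the 70 assignments of 4 against 4 mice allow. With any 1 mouse left out the smallest possible value is 0.0571, which was the value found each time.

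*Slc22a4* encodes OCTN1, which carries ergothioneine and handles carnitine poorly. Its level was 32.1, 37.5, 42.1, and 42.4 CPM in c-MafΔTAM and 42.3, 38.3, 32.4, and 28.2 CPM in c-Maf fl/fl kidneys. The ranges overlapped almost entirely, with a log2 fold change of 0.12 (SE 0.135, 95% confidence interval -0.17 to 0.42, adjusted *P* = 0.747). The interval did not include the change of *Slc22a5*, 91.5 kb away. In both genotypes the mice with low *Xist* were lowest, at 0.788 of the mean of the others in c-MafΔTAM and 0.751 in c-Maf fl/fl mice.

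Synthesis of carnitine starts with *Tmlhe*, the mitochondrial dioxygenase that hydroxylates trimethyllysine. Its level was 19.2, 16.7, 14.03, and 13.6 CPM in c-MafΔTAM and 11.9, 11.2, 14.3, and 12.4 CPM in c-Maf fl/fl kidneys. The highest c-Maf fl/fl mouse lay above the lowest 2 c-MafΔTAM mice. The log2 fold change was 0.35 (SE 0.137, adjusted *P* = 0.268), and it passed only in the fit with *Xist* as a covariate (0.40, adjusted *P* = 0.0425), where 2.59% of all genes were called higher, and not among mice with high *Xist* (adjusted *P* = 0.257).

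*Aldh9a1* encodes the cytosolic enzyme that oxidizes 4-trimethylaminobutyraldehyde to γ-butyrobetaine, the direct precursor of carnitine. It stood at 123.6, 127.0, 124.9, and 130.2 CPM in c-MafΔTAM and 245.3, 252.7, 320.4, and 317.0 CPM in c-Maf fl/fl kidneys. The c-MafΔTAM mice differed little from each other, and every c-Maf fl/fl mouse was well above them. The log2 fold change was -1.17 (SE 0.105, 95% confidence interval -1.40 to -0.94, adjusted *P* = 0.000113). The c-Maf fl/fl mice with low *Xist* were at 1.28 times those with high *Xist*, whereas in c-MafΔTAM mice this ratio was 0.971. Among mice with high *Xist* alone the log2 fold change was -0.97 (adjusted *P* = 2.33e-06).

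*Bbox1* encodes the dioxygenase that makes carnitine from γ-butyrobetaine, an enzyme that mice express mainly in the liver. It was near the lower end of what could be measured, with 20 to 65 counts per mouse, at 1.83, 1.03, 1.33, and 1.46 CPM in c-MafΔTAM and 3.19, 1.22, 1.67, and 1.99 CPM in c-Maf fl/fl kidneys. The ranges overlapped, and the log2 fold change of -0.51 (SE 0.323, 95% confidence interval -1.22 to 0.20, adjusted *P* = 0.530) leaves a difference of either sign possible. Of the 3 synthesis enzymes, the first was higher only with the covariate, the middle one fell, and no difference was detectable in the last at this depth.

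*Slc22a2* encodes OCT2, the basolateral carrier that takes up organic cations from blood, and its level in rodent kidney is known to depend on sex hormones. It was at 340.0, 183.4, 189.1, and 173.3 CPM in c-MafΔTAM and 86.3, 108.3, 210.4, and 208.9 CPM in c-Maf fl/fl kidneys. The highest mouse of the c-MafΔTAM group and the 2 highest of the c-Maf fl/fl group were the 3 mice with low *Xist*. Across all mice the log2 fold change of 0.53 (SE 0.369, 95% confidence interval -0.34 to 1.40, adjusted *P* = 0.594) did not pass the test. With *Xist* as a covariate it was 0.76 (SE 0.0946, adjusted *P* = 9.19e-05), and in the 5 mice with high *Xist* it was 0.90 (SE 0.0999, adjusted *P* = 6.31e-05), where 1.53% of the genes tested were called higher. Those mice averaged 181.9 CPM in c-MafΔTAM and 97.3 CPM in c-Maf fl/fl. Among mice with low *Xist*, the 1 c-MafΔTAM mouse was at 1.62 times the mean of the 2 c-Maf fl/fl mice, which allows no test.

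*Slc47a1* encodes MATE1, the proton-coupled exporter of the brush border. Its level was 490.2, 353.6, 346.0, and 308.0 CPM in c-MafΔTAM and 267.5, 284.0, 385.6, and 396.4 CPM in c-Maf fl/fl kidneys. The order of the mice followed *Xist* as in *Slc22a2*, with c-Maf fl/fl mice with low *Xist* at 1.42 times those with high *Xist*, against 2.15 times for *Slc22a2*. The log2 fold change was 0.17 (SE 0.170, adjusted *P* = 0.726) across all mice, 0.27 (SE 0.0738, adjusted *P* = 0.0398) with *Xist* as a covariate, and 0.28 (adjusted *P* = 0.105) in mice with high *Xist*. Within both *Xist* classes, 3 members (*Slc22a2*, *Slc47a1*, and *Tmlhe*) were higher in every c-MafΔTAM mouse than in any c-Maf fl/fl mouse and 2 (*Slc22a5* and *Aldh9a1*) were lower, as were 9.5% and 11.1% of all genes tested.

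*Slc22a3*, the extraneuronal monoamine carrier, was hardly detected, with 2 to 22 counts per mouse. It was at 0.20, 0.31, 1.22, and 1.03 CPM in c-MafΔTAM and 0.39, 0.99, 1.12, and 0.12 CPM in c-Maf fl/fl kidneys. Both groups spanned nearly the same range, and its log2 fold change of 0.04 (SE 0.672, adjusted *P* = 0.988) changed sign between fits.

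**Figure D2:**
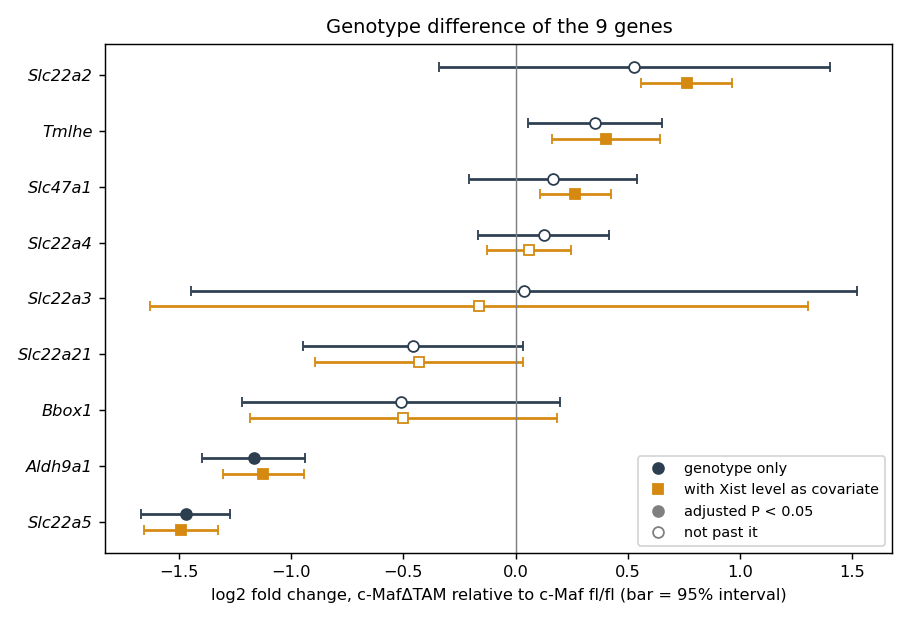
Log2 fold change of c-MafΔTAM relative to c-Maf fl/fl with its 95% confidence interval for each member, for all 8 mice without a covariate and with *Xist* as a covariate; filled points have an adjusted *P* under 0.05. *Slc22a5* and *Aldh9a1* lay below 0 in both fits, and the intervals of *Slc22a2* narrowed from -0.34 to 1.40 without the covariate to 0.56 to 0.96 with it.

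*Slc47a2*, the MATE2 gene beside *Slc47a1*, was at 0 to 1.07 CPM, with a log2 fold change of 0.38 (SE 0.707, adjusted *P* = 0.863). Its ranges overlapped between genotypes.

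Levels were compared between genes as CPM per kilobase of exons, so that longer genes do not count as higher. In c-Maf fl/fl kidneys *Slc47a1* was the highest member at 98.5 ± 19.8 CPM per kb, followed by *Aldh9a1* (83.9 ± 11.9), *Slc22a5* (66.4 ± 3.47), and *Slc22a2* (61.8 ± 26.4; SD, n = 4 each). Neighbors in this order overlapped except *Aldh9a1* and *Slc22a5*. *Slc22a4* (13.8), *Tmlhe* (5.53), and *Slc22a21* (1.46) followed at levels that did not overlap with the next. *Bbox1* (0.459) and *Slc47a2* (0.185) overlapped, as did *Slc47a2* and *Slc22a3* (0.145), while *Bbox1* was above *Slc22a3* in every mouse compared. In c-MafΔTAM kidneys *Slc22a2* moved above *Aldh9a1* and *Slc22a5* (89.2 ± 31.9 CPM per kb, against 37.4 ± 0.850 and 24.0 ± 2.29), without overlap.

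**Figure D3:**
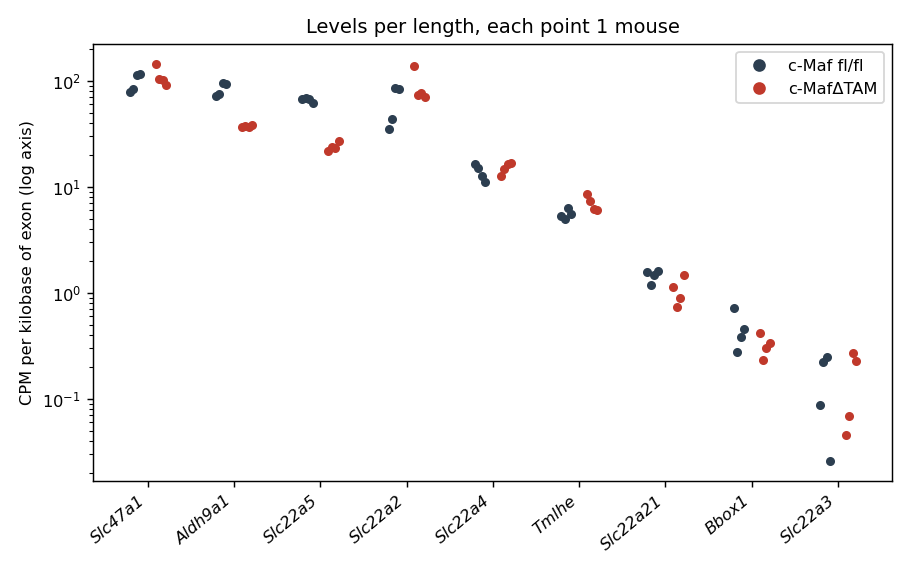
CPM per kilobase of exons on a log axis for the 9 members, 1 point per mouse, dark for c-Maf fl/fl and red for c-MafΔTAM, in the order of the c-Maf fl/fl means. *Slc22a5* and *Aldh9a1* moved down between genotypes, from 66.4 to 24.0 and from 83.9 to 37.4 CPM per kb on average, while the order of the lower genes from *Slc22a4* downward was the same in both.

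The other genes of carnitine use and organic cation handling were described by 5 lists. The carnitine shuttle had 7 genes, all tested, of which 1 was lower and 0 were higher, with a median log2 fold change of -0.34. Of all genes tested, 1.58% were lower and 0.586% higher. The one that fell was *Cpt2*, which releases acyl groups from carnitine inside mitochondria, at 77.1, 81.4, 87.2, and 107.1 CPM in c-MafΔTAM and 134.2, 134.4, 147.8, and 146.2 CPM in c-Maf fl/fl kidneys (log2 fold change -0.67, SE 0.106, adjusted *P* = 0.00595). The genotypes did not overlap. *Cpt1a*, the step that loads acyl groups onto carnitine, had a log2 fold change of -0.34 (adjusted *P* = 0.170), and the carrier *Slc25a20* had -0.36 (adjusted *P* = 0.225). With *Xist* as a covariate 3 shuttle genes were lower (4.23% of all genes), *Cpt2* with these 2 (*Cpt1a* -0.32, adjusted *P* = 0.0471, and *Slc25a20* -0.42, adjusted *P* = 0.0160). *Cpt1a* and *Slc25a20* did not pass among mice with high *Xist* (adjusted *P* = 0.119 and 0.0766).

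A list of 8 further genes of carnitine transport and synthesis had 6 tested members, with 0 lower and 0 higher by edgeR's quasi-likelihood test and a median log2 fold change of -0.03. Without adjustment 1 of them was higher at *P* under 0.05 (6.58% of all genes), DESeq2 called 1 higher, and edgeR's exact test called 0. The gene was *Slc23a1*, named here after its values were seen, which carries ascorbate, a cofactor of the dioxygenases that *Tmlhe* and *Bbox1* encode. It was at 178.7, 309.1, 287.5, and 310.4 CPM in c-MafΔTAM and 196.0, 217.3, 146.9, and 148.5 CPM in c-Maf fl/fl kidneys, again split by *Xist* (log2 fold change 0.62, adjusted *P* = 0.170; with *Xist* as a covariate 0.49, adjusted *P* = 0.000494). The covariate also gave 1 lower gene, *Shmt1* (log2 fold change -0.34, adjusted *P* = 0.00740). In that fit 4.23% of all genes were lower and 2.59% higher. Among mice with high *Xist* the adjusted *P* was 0.00138 for *Slc23a1* and 0.0421 for *Shmt1*.

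Of 20 further organic cation carriers, choline and thiamine transporters included, 14 were tested, and 0 were lower and 1 was higher (median 0.16). The shares over all genes tested were 1.58% lower and 0.586% higher. *Slc18a1*, the vesicular monoamine transporter VMAT1, rose to 270.9, 230.0, 221.7, and 209.6 CPM in c-MafΔTAM from 84.6, 100.4, 125.9, and 135.1 CPM in c-Maf fl/fl kidneys (log2 fold change 1.06, SE 0.145, adjusted *P* = 0.00228). All c-MafΔTAM mice were above all c-Maf fl/fl mice. With *Xist* as a covariate 2 were higher (2.59% of all genes), as *Abcb1a*, a drug efflux pump, then passed too (log2 fold change 0.89, adjusted *P* = 0.0318), but not among mice with high *Xist* (adjusted *P* = 0.0850).

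Among 10 scaffolds and regulators known for OCTN2 or the proximal tubule, 3 were lower and 0 were higher, with a median of -0.25. Over all genes tested, 1.58% were lower and 0.586% higher. *Ppara*, the nuclear receptor that drives fatty acid oxidation genes and can induce *Slc22a5*, was at 53.8, 73.0, 60.7, and 66.2 CPM in c-MafΔTAM and 116.0, 124.6, 109.0, and 99.9 CPM in c-Maf fl/fl kidneys (log2 fold change -0.83, SE 0.107, adjusted *P* = 0.00147). *Pdzk1ip1*, which binds the brush border scaffold PDZK1, fell by 0.61 on the log2 scale (adjusted *P* = 0.00972), while *Pdzk1* itself had a log2 fold change of -0.35 (adjusted *P* = 0.433). *Slc9a3r1*, the scaffold NHERF1, fell by 0.46 (adjusted *P* = 0.0334), but with 1 mouse left out it passed only in the fit without c-Maf fl/fl mouse 1, with adjusted *P* from 0.0332 to 0.0893.

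Of 15 known PPARα targets, which include *Cpt1a* and *Slc25a20* of the shuttle list, 2 were lower and 0 were higher, with a median of -0.34. The shares over all genes tested were 1.58% lower and 0.586% higher. *Ehhadh*, an enzyme of peroxisomal β-oxidation, was at 410.3 CPM in c-MafΔTAM and 638.5 CPM in c-Maf fl/fl kidneys on average (log2 fold change -0.64, adjusted *P* = 0.0453). *Vnn1*, a pantetheinase, was at 46.9 and 80.8 CPM (log2 fold change -0.79, adjusted *P* = 0.0442). Both calls were near the threshold and held with 1 mouse left out in 2 of 8 fits each (*Ehhadh* without c-Maf fl/fl mouse 1 or 2, *Vnn1* without c-MafΔTAM mouse 1 or c-Maf fl/fl mouse 2), with adjusted *P* up to 0.162 and 0.141. *Hadha* and *Acadm* did not pass the test, with log2 fold changes of -0.12 and 0.16. With *Xist* as a covariate 5 of the 15 targets were lower (4.23% of all genes) and 0 higher, among them *Cpt1a* and *Slc25a20*, which did not pass among mice with high *Xist*.

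**Figure D4:**
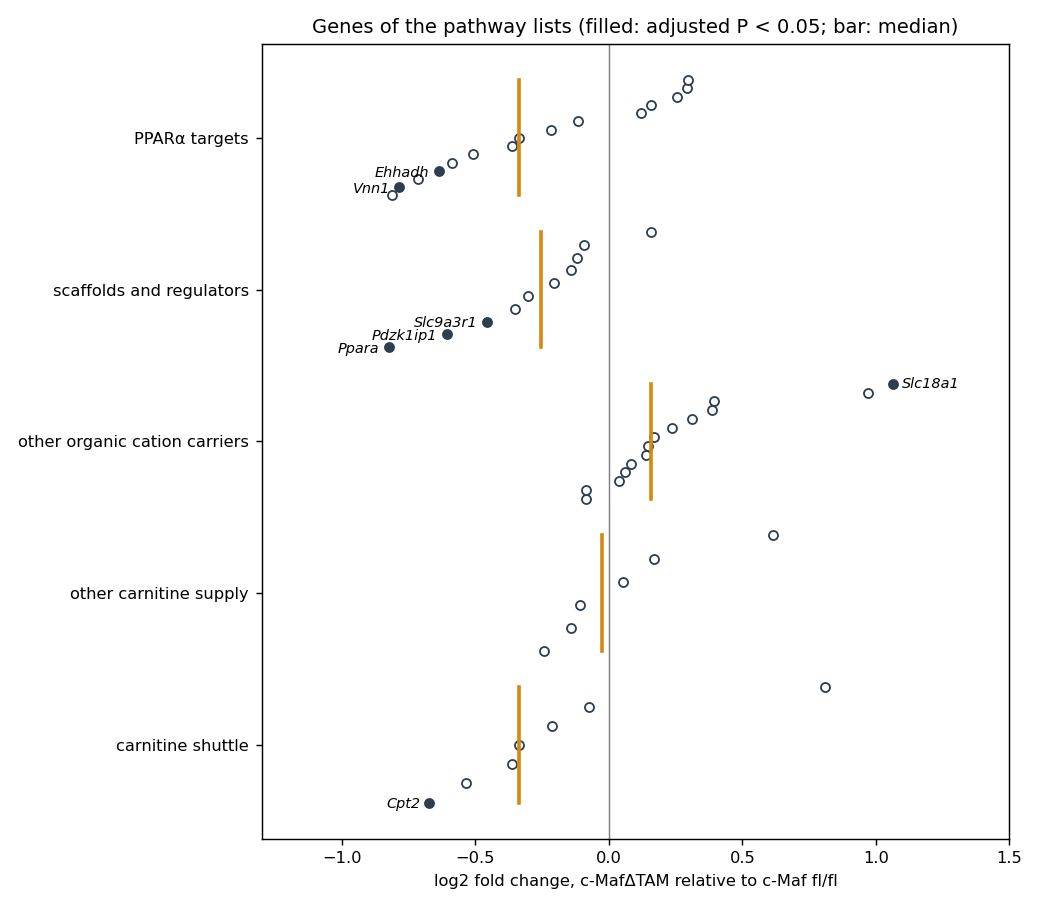
Log2 fold change of c-MafΔTAM relative to c-Maf fl/fl for each tested gene of the 5 lists, 1 point per gene, with filled points for an adjusted *P* under 0.05 and a vertical bar at the median of each list. Filled points lay left of 0 in the shuttle, scaffold, and PPARα lists, with medians of -0.34, -0.25, and -0.34, and the 1 filled point right of 0 was *Slc18a1*.

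OCTN2 and MATE1 sit in the proximal tubule, so general genes of that segment are set beside them. Of 9 proximal tubule markers 2 were lower (*Slc34a1*, log2 fold change -1.23, and *Slc5a12*, -1.71) and 0 were higher by edgeR's quasi-likelihood test. Over all genes tested, 1.58% were lower and 0.586% higher. DESeq2, edgeR's exact test, and the fit with *Xist* as a covariate (4.23% of all genes lower) each called 3 lower. The added gene with the covariate was *Slc13a3* (log2 fold change -1.03, adjusted *P* = 3.36e-06, and 1.25e-05 among mice with high *Xist*). The summed level of the 9 was 9976 to 13746 CPM in c-MafΔTAM and 15349 to 17555 CPM in c-Maf fl/fl kidneys. Much of that gap lay in *Slc34a1*, which averaged 1745 CPM in c-MafΔTAM and 4098 CPM in c-Maf fl/fl kidneys. Of the 9 log2 fold changes 8 were below 0, with a median of -0.49. Those nearest 0 were of *Cubn* (-0.03), *Aqp1* (0.11), *Lrp2* (-0.17), and *Hnf4a* (-0.20), none of them called. Of 6 genes of the last proximal segment, 0 were lower and 0 higher by edgeR's quasi-likelihood test and by DESeq2, with 1 higher at an unadjusted *P* under 0.05 (6.58% of all genes). With *Xist* as a covariate 1 of these 6 was higher (2.59% of all genes), *Atp11a* (log2 fold change 0.47, adjusted *P* = 0.0367, and 0.0491 among mice with high *Xist*). Of 3 tested tubular injury markers, 0 were called by these fits, with 1 higher without adjustment. Of 6 hepatocyte genes 4 were tested, with 0 called by edgeR's quasi-likelihood test, while edgeR's exact test called 1 lower and 1 higher. *Alb* had a log2 fold change of -2.04 (adjusted *P* = 0.0803), and of -2.25 with the covariate (adjusted *P* = 4.65e-05, and 0.000529 among mice with high *Xist*). In the main fit *Serpina1a* had 1.99 (adjusted *P* = 0.286), *Fgb* 0.54 (0.568), and *Apob* -0.28 (0.340). Of 4 endothelial markers 1 was lower (1.58% of all genes), *Kdr* (log2 fold change -0.37, adjusted *P* = 0.0450, with the covariate 0.00834, and 0.0534 among mice with high *Xist*), which edgeR's exact test did not call. The summed level of the 4 was 245.8 to 263.8 CPM in c-MafΔTAM and 267.2 to 297.6 CPM in c-Maf fl/fl kidneys. The part of these markers in the fall of *Slc22a5* and *Aldh9a1* was not tested.

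Within 200 kb of a member there were 37 tested genes that were not members, and 0 were lower and 0 higher by edgeR's quasi-likelihood test, against 1.58% and 0.586% of all genes tested. At an unadjusted *P* under 0.05, 1 was lower and 2 were higher (7.44% and 6.58% of all genes), and 0 were called by DESeq2 or by edgeR's exact test, counts too small to set the neighbors apart from all genes. Their log2 fold changes ran from -0.66 to 0.94 with a median of 0.00. The 7 of them around *Slc22a5* were named after their values were seen. *Gm12216*, the nearest at 5.29 kb, had a log2 fold change of 0.51 (adjusted *P* = 0.418), and *Gm12219* had -0.49 (0.687) and *Gm17334* 0.24 (0.788), all 3 at under 3 CPM on average. The others were at 0.06 for *Irf1*, 0.00 for *Pdlim4*, 0.00 for *Rad50*, and -0.12 for *Gm22275*. *Slc22a21* lies 58.3 kb from *Slc22a5* and 2.79 kb from *Slc22a4*.

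**Figure D5:**
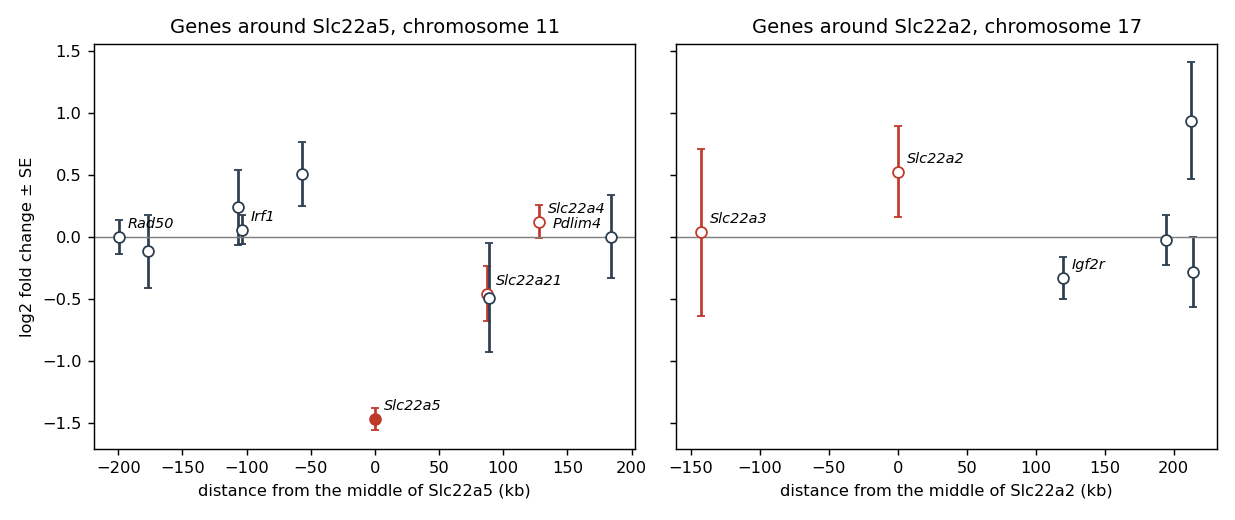
Log2 fold change of c-MafΔTAM relative to c-Maf fl/fl (points, with SE as bars) for the members and the neighbors shown within 200 kb of *Slc22a5* on chromosome 11 and of *Slc22a2* on chromosome 17, against the distance between gene middles in kb; filled points have an adjusted *P* under 0.05 and red points are members. *Slc22a5*, at -1.47, was the only filled point in either panel.

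The genes whose levels ran most like those of a member over the 8 mice were found by the Pearson correlation of log2 CPM among 12016 genes with at least 5 CPM on average, as a description; the mice share genotype and *Xist* class. For *Slc22a5* they were *Ctsl* (r = 0.990), *Bckdha* (0.986), and *Unc5c* (0.986). *Aldh9a1* was followed by *Akr1a1* (0.992), *Fahd2a* (0.991), and *Scpep1* (0.991). These 6 genes were all lower in c-MafΔTAM kidneys by edgeR's quasi-likelihood test, with log2 fold changes from -0.68 for *Ctsl* to -1.32 for *Unc5c*. For *Slc22a2* they were *4833420G17Rik* (0.991), *Mlxipl* (0.988), and *Nt5e* (0.987), and for *Slc47a1* they were *Hykk* (0.996), *Rnf11* (0.996), and *Pctp* (0.991), none of which was called. For *Slc22a4* they were *Gm5113* (0.980), *Foxj3* (0.979), and *Cand2* (0.977). *Slc22a21* was followed by *Btbd2* (0.960), *Zkscan14* (0.946), and *Rps4l* (0.944), and *Tmlhe* by *Tmem243* (0.961), *Gm37472* (0.960), and *Psme3* (0.958). The sparse genes had *4931414P19Rik* (0.961), *Gm13123* (0.934), and *4833413G10Rik* (0.917) for *Bbox1*, and *Cavin3* (0.973) and *Trim65* (0.942) for *Slc22a3*.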

How the data were processed

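RNA of whole kidneys was depleted of ribosomal RNA and sequenced as paired 36-base reads. The authors deposited raw counts per gene name, made with featureCounts (2.0.1 in the file header, within Subread 2.0.2 in the submitters' processing notes) on exons of Ensembl release 102, GRCm38. Each read of a pair was counted, strand was ignored, and reads over exons of several genes were dropped, so reads of overlapping or near-identical genes may be lost or moved. The aligner is not given in the sources used here. The paper describes another route (CLC Genomics Workbench with quantile normalization and an edgeR test), which was not repeated. No column of per-sample values was left unused (0).

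Genes were filtered with filterByExpr, scaled by TMM, and tested without covariates by edgeR 4.0.16 (robust quasi-likelihood, R 4.3.3). SEs are the log2 fold change over the square root of F, and log2 CPM used a prior count of 2. Alternatives used other scalings and filters, DESeq2 1.42.0, limma 3.58.1, edgeR's exact test, *Xist* as a covariate, the 5 mice with high *Xist* (over 1000 counts), a replicate block, and each mouse left out. Scripts were tested on simulated counts. Shared 36-base sequences came from GENCODE transcripts and promoters from RefSeq. Each mouse was 1 replicate, and no pair of libraries matched within sampling noise. *P* values measure the spread between these mice. By the rule for names, these were the members, *Slc47a2*, *Maf*, called genes of the 5 pathway lists and neighbors, *Xist*, and the 3 genes most correlated with each member; 3 further genes are not reported here. All other genes named, uncalled list genes, cell type markers, and neighbors included, were chosen after their values were seen. The members and lists were chosen with earlier results of these data known. Figures were drawn with matplotlib 3.10.9.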

Additional observations from a re-analysis of the deposited data

Results flagged for a closer look

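*Slc22a2* in c-MafΔTAM mice had 1 mouse far from the other 3. Mouse 1 was at 340.0 CPM and the others at 173.3 to 189.1 CPM, so that the gap to the nearest mouse was 0.905 of the whole range of the group, against a limit of 0.829 for 4 mice. This was the 1 flag among 42 groups of 4 values examined, where chance alone would give about 2.1. Mouse 1 was also the only c-MafΔTAM mouse with low *Xist* and had the largest mitochondrial share (32.3%); the part of these in its *Slc22a2* level was not tested. Without this mouse the log2 fold change of *Slc22a2* was 0.25 (adjusted *P* = 0.819, edgeR's quasi-likelihood test).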

How the results depend on the processing

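*Slc22a5* and *Aldh9a1* were the 2 members called lower in each of 13 alternatives and in the 8 fits that left out 1 mouse (log2 fold change -1.54 to -1.43 and -1.23 to -1.10 in the latter). Members called higher numbered 3 with *Xist* as a covariate, 1 in mice with high *Xist*, and 0 in the other 11 and in the 8 fits. *Slc22a2* passed at 0.76 and 0.90 in those 2 fits, and *Slc47a1* and *Tmlhe* at 0.27 and 0.40 with the covariate only. *Slc22a3* was reversed at -0.0497 under quantile normalization, at -0.16 with the covariate, and over -0.38 to 0.40 with a mouse left out, and a minimum of 10 counts for each mouse removed it. Over all genes, 318 were lower and 118 higher; DESeq2 gave 567 and 319, the *Xist* covariate 853 and 521, an adjusted *P* under 0.01 144 and 36, and leaving out a mouse 188 to 310 and 51 to 142. Higher genes alone moved to 191 without a filter beyond 1 count, to 218 by edgeR's exact test (over its own 31280 genes with at least 5 counts in total), and to 322 in mice with high *Xist*. The cause was not tested. The *Slc22a5* share difference was -2.34 points in mice with high *Xist* (exact *P* = 0.200) and -2.86 to -2.02 points with a mouse left out (exact *P* = 0.0571), designs that cannot pass 0.05.

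Deviations from the group means correlated at -0.373, 0.152, -0.110, and -0.331 between the mice numbered 1 to 4. Under numbers 1, 3, and 4 the mice were of opposite *Xist* class, so this check cannot tell whether the numbers pair the mice. With the replicate block 111 genes were lower and 18 higher, 127 of these 129 among those called without it, and *Slc22a5* (-1.47, adjusted *P* = 0.00409) and *Aldh9a1* (-1.16, adjusted *P* = 0.00763) were still called. Depth limits *Slc22a3* and *Bbox1*, with at most 22 and 65 counts per mouse.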
